A study of Mus musculus with 8 samples.

Results

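The MHC class II presentation genes form a group of 7 among the 21251 genes tested: the transactivator gene Ciita, the invariant chain gene Cd74, the peptide-binding chain genes H2-Aa, H2-Ab1 and H2-Eb1, and the peptide exchange genes H2-DMa and H2-DMb1. Their probes are all those on the array that carry a RefSeq transcript of one of these genes, which gave 8 of 55681 probes, with 2 for H2-Ab1 and 1 for each of the others. All 8 probes were above background on all 8 arrays, so every member passed the filter on dim probes. The genes were chosen by name with earlier results of the same comparison in view, in which Ciita, Cd74 and H2-Eb1 had been higher in the knockout. Their differences between genotypes are therefore given as a description. Where the members are counted by limma's results, the count stands beside that of all genes and supports nothing.

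The samples were neutrophils taken as the Ly6G-positive fraction of bone marrow by magnetic beads, 4 from wild-type (WT) mice and 4 from mice lacking the stress-induced transcription factor ATF3 (ATF3 KO), all on the C57BL/6 background. Total RNA, labelled with the dye Cy3, was read on 8 Agilent arrays of 1 colour. By the series' design text RNA was taken at once from the sorted cells, but 7 of the 8 sample descriptions speak of culture in methylcellulose with 4-OHT, and the labels do not settle this. The mice's age and the construction of the knockout allele are not given in the sources used here, nor is it said that the samples came from separate animals, so errors measure the spread between these samples, which may be technical. All arrays lay on 1 slide, each genotype filling a row of its own, so effects of row and of genotype cannot be told apart. Signal was scaled by its 75th percentile, which was between 151 and 216 on the WT arrays and between 113 and 161 on the ATF3 KO arrays. ATF3 KO array 4, often the highest below, had the lowest percentile of all arrays and the smallest share of probes above background (46.0%). The probe for Atf3, the deleted gene, was not lower but higher on every ATF3 KO array (log2 difference 0.51, limma SE 0.14, adjusted p = 0.12). Whether it lies in the deleted part is not known here, so it does not check the genotype labels.

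MHC class II molecules are pairs of an alpha and a beta chain that display peptides from endocytosed proteins to CD4+ T cells. The invariant chain, encoded by Cd74, escorts the newly made pair and blocks its groove. H2-DM, an alpha and beta pair that stays inside the cell, exchanges the last invariant chain fragment for peptide, and H2-O restrains H2-DM, mainly in B cells. CIITA does not bind DNA itself but is recruited to a complex of RFX, CREB and NF-Y factors on the X and Y boxes of these promoters. B cells, dendritic cells and macrophages carry class II constitutively or after activation, and resting mouse neutrophils are known for little of it. Mice of the C57BL/6 background carry a defective H2-Ea gene, so H2-Eb1 lacks its usual partner.

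The promoter sequences show what the class II genes share apart from their signal. RefSeq windows of GRCm38.p6, from 250 bases before to 50 after a transcript's start, were at hand for H2-Aa, H2-Eb1, H2-DMb1 and, with 2 windows, H2-DMa, but not for Ciita, Cd74 and H2-Ab1. They were searched on both strands for the X box core AACNGATG, the Y box ATTGG (the reverse of CCAAT), the core TGACG of the cyclic AMP response element (CRE), and the full element TGACGTCA, which contains that core. The stretches of 60 bases below are aligned on the Y box, run 5′ to 3′ on each gene's strand, and have every match in capitals. The first 3 are members and the others are further class II genes. The coordinates are chr17:34287857-34287916 (minus strand) for H2-Aa, and on the plus strand chr17:34305763-34305822 for H2-Eb1, chr17:34153085-34153144 for H2-DMb1, chr17:34145114-34145173 for H2-DMb2, chr17:34325530-34325589 for H2-Eb2, chr17:34238803-34238862 for H2-Ob and chr17:34092291-34092350 for H2-Oa.
H2-Aa: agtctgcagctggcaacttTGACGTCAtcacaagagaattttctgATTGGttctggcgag
H2-Eb1: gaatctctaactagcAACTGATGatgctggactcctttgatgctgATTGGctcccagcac
H2-DMb1: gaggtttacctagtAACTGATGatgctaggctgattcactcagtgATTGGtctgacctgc
H2-DMb2: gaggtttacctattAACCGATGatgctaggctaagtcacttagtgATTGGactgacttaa
H2-Eb2: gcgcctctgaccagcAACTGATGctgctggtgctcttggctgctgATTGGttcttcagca
H2-Ob: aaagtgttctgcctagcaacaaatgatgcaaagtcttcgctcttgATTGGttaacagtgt
H2-Oa: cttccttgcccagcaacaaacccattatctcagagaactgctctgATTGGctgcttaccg

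All 7 windows held a Y box on the gene's strand, starting between position −100 (H2-Eb2) and position −43 (H2-Oa) from the transcript's start. The Y box alone is common, with a match in 37.4% of the 32817 promoter windows. The X box core was matched in 2.32% of all windows, and here in H2-Eb1, H2-DMb1, H2-DMb2 and H2-Eb2. In these 4 it started 30 or 31 bases before the Y box. A distance of 25 to 35 bases between them, a range set after seeing these genes, occurred in 5 of the 32817 windows, and the fifth belonged to BC051142. This pair was counted only on the gene's strand and with the X box core first. H2-Aa instead held the full CRE at position −74, an element found in 1.79% of windows, while the CRE core was found in 20.8%. Of the H2-DMa windows, one had no match and the other only a Y box at position −198. A match describes letters and not binding, and the X box core searched here is one of several forms. H2-DMb1, whose signal did not separate the genotypes, and H2-Eb1, whose signal did, held the same pair of matches at nearly the same spacing.

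**Figure D1:**
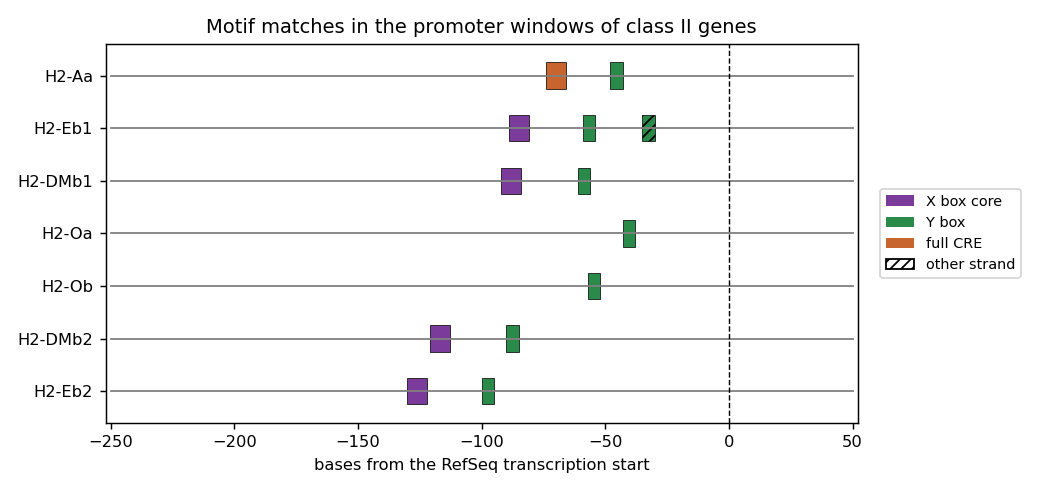
Motif matches in 7 class II promoter windows, with distance from the RefSeq transcription start in bases on the horizontal axis and 1 gene per line; hatching marks a match on the other strand. The X box core and Y box stand 30 or 31 bases apart in 4 genes, and H2-Aa has the full CRE at position −74.

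Ciita, the switch of the class II genes, had the largest difference between genotype means among the members with the scaling used here. All levels here are log2 of the signal over the 75th percentile of its array. For Ciita this was −1.12, −1.61, −1.20 and −1.19 on WT arrays 1 to 4. On ATF3 KO arrays 1 to 4 it was −1.03, −0.35, −0.79 and −0.06. All 4 ATF3 KO values lay above all 4 WT values, but array 1 only just, and array 4 stood highest. The WT mean was −1.28 ± 0.22 and the ATF3 KO mean −0.56 ± 0.44 (SD, n = 4), a log2 difference of 0.72 (limma SE 0.21) or 1.65-fold. The size depended on the processing, and the log2 difference was 0.51 with normexp background correction. With the authors' deposited log2 values it was 0.5425, and Cd74 had the larger difference (0.545). The ATF3 KO arrays of Ciita spread more than those of any other member. The gene has several promoters used by different cell types, and which of its transcripts the probe reads is not known here. In bulk RNA of a sorted fraction, a change in the number of cells that express a gene and a change in its RNA per cell cannot be told apart, which holds for every value below.

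Cd74, the invariant chain, had log2 levels of 4.45, 4.51, 4.58 and 4.50 on WT arrays 1 to 4 and of 4.85, 4.76, 4.82 and 4.95 on ATF3 KO arrays 1 to 4. The groups did not overlap, and each was narrow (4.51 ± 0.05 and 4.85 ± 0.08, SD, n = 4). The log2 difference was 0.34 (limma SE 0.09), or 1.26-fold.

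The peptide-binding chain genes had log2 differences between 0.19 and 0.31. H2-Ab1, the beta chain of the A molecule, was read by a pair of probes. The first gave 5.37, 5.36, 5.34 and 5.43 on the WT arrays and 5.62, 5.59, 5.69 and 5.73 on the ATF3 KO arrays. The second gave 5.26, 5.31, 5.35 and 5.17 against 5.54, 5.44, 5.65 and 5.67. With either probe the ATF3 KO arrays were all above the WT arrays and stood in the same order, array 4 first and array 2 last. The log2 differences of 0.28 (limma SE 0.09) and 0.30 match within that error. H2-Eb1, the beta chain of the E molecule, gave 4.86, 4.76, 4.96 and 4.89 in WT and 5.16, 5.16, 5.14 and 5.24 in ATF3 KO. Its groups were apart too, with a log2 difference of 0.31 (limma SE 0.09), or 1.24-fold. H2-Aa, the alpha chain of the A molecule, gave 2.16, 2.21, 2.33 and 2.17 against 2.35, 2.39, 2.45 and 2.43. Here the groups only just parted, WT array 3 lying close to ATF3 KO array 1, and the log2 difference was 0.19 (limma SE 0.09), or 1.14-fold.

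The H2-DM genes did not part the genotypes. H2-DMa, the alpha chain, gave 1.36, 1.27, 1.37 and 1.30 in WT and 1.34, 1.01, 1.44 and 1.09 in ATF3 KO. The highest and the lowest of the 8 values were both ATF3 KO arrays, and the log2 difference was −0.11 (limma SE 0.12). H2-DMb1, the beta chain, gave 2.89, 2.95, 3.07 and 2.83 against 2.83, 2.73, 2.94 and 2.99, with the groups interleaved and a log2 difference of −0.06 (limma SE 0.10). The sign of these differences is a matter of scaling, being positive under 2 of 18 alternatives for H2-DMa and 3 of 18 for H2-DMb1. H2-DMb1 has a near-identical neighbour, H2-DMb2, and whether either probe reads both was not tested. The plot of signal by array shows the split between the 5 genes whose groups were apart and the H2-DM pair.

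**Figure D2:**
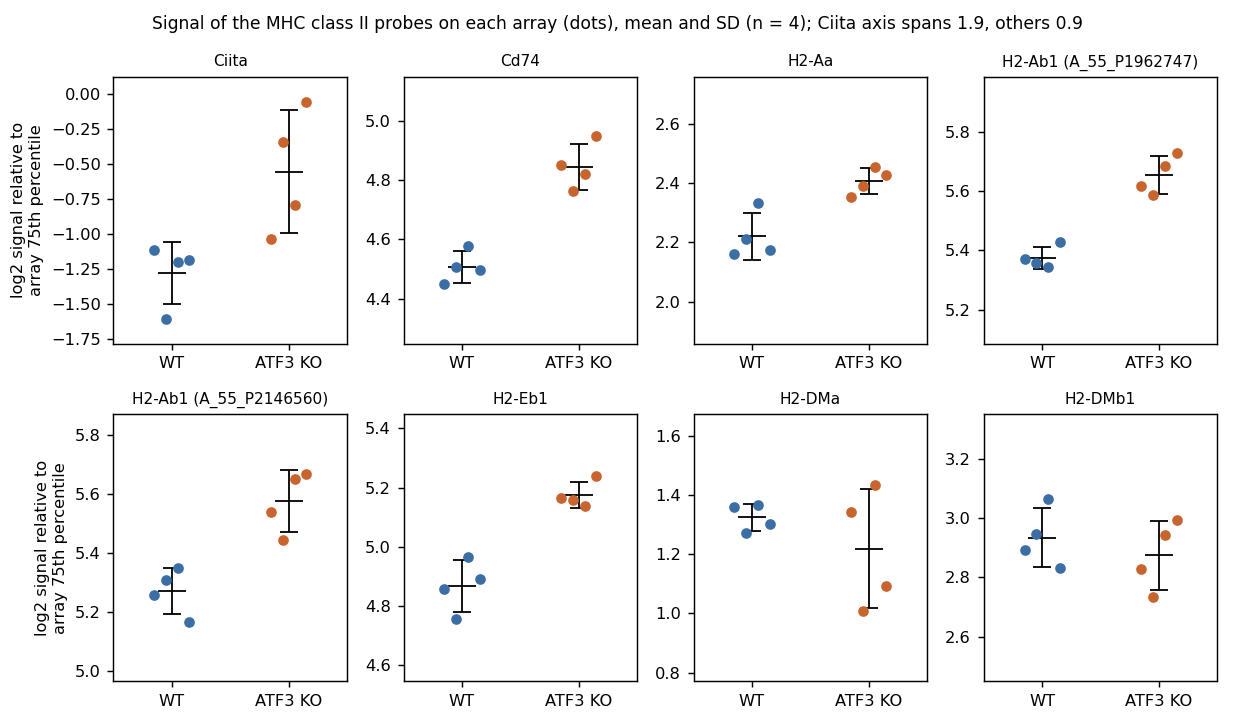
Log2 signal over the array's 75th percentile (vertical axes) of the 8 class II probes in WT and ATF3 KO; dots are arrays, and bars give the mean and SD (n = 4). The ATF3 KO dots lie above all WT dots for Ciita, Cd74, H2-Aa, both H2-Ab1 probes and H2-Eb1, and overlap them for H2-DMa and H2-DMb1.

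None of the 7 members passed limma's threshold of an adjusted p under 0.05 over all genes, where 0.447% of genes passed in either direction and 0.367% as higher. At an unadjusted p under 0.05, 4 members were higher (Ciita, Cd74, H2-Ab1 and H2-Eb1) and 0 lower, where 9.37% of all genes were higher and 14.5% lower, 23.9% together. In 5 of the 7 every ATF3 KO array lay above every WT array, as in 4.13% of all genes. These counts follow from how the genes were chosen and are not read further. The median log2 difference of the members was 0.28, while that of all genes was −0.11 with this scaling, so the members' median stood 0.39 above it (0.23 with normexp background correction). The position relative to all genes was 0.00 for H2-DMa, 0.05 for H2-DMb1, 0.30 for H2-Aa, between 0.39 and 0.45 for H2-Ab1, H2-Eb1 and Cd74, and 0.83 for Ciita. It was above 0 under every alternative for these 5 genes, and under 12 of 18 for H2-DMa and 15 of 18 for H2-DMb1. Some of these alternatives cannot move it and add nothing to the counts. They are median scaling, the percentile over probes detected on all arrays, trend and robust variances, and the replicate block. The log2 difference of Cd74 ran from 0.26 to 0.55 over the alternatives, the latter with the authors' deposited log2 values in place of the scanner signal. With those values Cd74 was the 1 member past limma's threshold, among 150 genes that passed.

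The other class II genes were those of the H2-O pair, H2-DMb2 and H2-Eb2, while no probe could be matched to H2-Ea. None of the 4 measured passed limma's threshold, and 2 were higher at an unadjusted p under 0.05, where 9.37% of all genes were. H2-Ob, the beta chain of H2-O and a gene used mainly by B cells, gave 0.09, −0.03, 0.27 and 0.08 in WT and 0.57, 0.87, 0.48 and 1.12 in ATF3 KO. All ATF3 KO arrays were above the WT arrays, with arrays 4 and 2 highest, as for Ciita. Its log2 difference was 0.65 (limma SE 0.15, adjusted p = 0.0952), but the groups overlapped with a second probe, at a difference of 0.49. H2-Oa, the alpha chain, gave 0.56, 0.51, 0.67 and 0.45 against 0.80, 0.79, 0.68 and 0.82, which barely parted the groups (log2 difference 0.22, limma SE 0.09, adjusted p = 0.19). The groups overlapped for H2-DMb2 (0.17, SE 0.12) and H2-Eb2 (0.14, SE 0.15). In 4.13% of all genes every ATF3 KO array lay above every WT array.

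Of 7 factors that assemble on class II promoters, 6 were measured, and 0 passed limma's threshold either after adjustment or at an unadjusted p under 0.05. The log2 differences ran from −0.18 (SE 0.12) for Creb1, which binds the CRE-like part of the X box, to 0.03 (SE 0.10) for Nfyc, a subunit of the Y box factor NF-Y. Rfxank and Rfxap, subunits of the X box factor RFX, differed by −0.17 (SE 0.14) and −0.15 (SE 0.15). Rfx5, the third subunit, was not well above background on any array. Among 9 genes that act on Ciita, 0 passed the threshold and 1 was higher at an unadjusted p under 0.05, where 9.37% of all genes were. That was Irf4, a factor of B cells, plasma cells and dendritic cells, at −0.41, −0.78, −0.75 and −1.09 in WT and −0.13, −0.35, −0.15 and −0.11 in ATF3 KO. Its groups were apart (log2 difference 0.57, SE 0.14, limma adjusted p = 0.109). Pax5, which defines B cells, differed by 0.28 (SE 0.22), the myeloid factor Spi1 by −0.18 (SE 0.16) and Tcf3 by −0.07 (SE 0.11), and each of these overlapped between groups.

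None of the 7 genes that process antigen and invariant chain passed limma's threshold, and 2 were lower at an unadjusted p under 0.05, as 14.5% of all genes were. The lysosomal protease gene Ctsb differed by −0.28 (SE 0.10, limma adjusted p = 0.163) and Lgmn, which encodes asparaginyl endopeptidase, by −0.37 (SE 0.15, adjusted p = 0.184), and for both every ATF3 KO array was below every WT array, as for 2325 of the 21251 genes. Ctsl (−0.22, SE 0.13) and the thiol reductase gene Ifi30 (−0.18, SE 0.14) overlapped between groups. The list's median was 0.07 below that of all genes, 0.23 below with normexp background correction, and 0.01 and 0.14 below without ATF3 KO replicates 2 and 3.

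Among 7 genes of class II turnover and costimulation 0 passed limma's threshold. At an unadjusted p under 0.05, 1 was higher and 1 lower, where 9.37% of all genes were higher and 14.5% lower. Marchf1, the ubiquitin ligase that removes class II and CD86 from the cell surface, gave 5.86, 5.52, 5.90 and 5.84 in WT and 6.41, 6.66, 6.02 and 6.96 in ATF3 KO. Again arrays 4 and 2 were highest and the groups were apart (log2 difference 0.73, SE 0.19, limma adjusted p = 0.114). It passed without ATF3 KO replicate 3 (0.90, limma adjusted p = 0.0463). Cd86, a costimulatory ligand, gave 2.66, 2.60, 2.62 and 2.46 against 2.24, 2.07, 2.25 and 2.13. It was lower on every ATF3 KO array (log2 difference −0.41, SE 0.09, limma adjusted p = 0.0956) and passed with normexp background correction (−0.50, limma adjusted p = 0.0342). Cd40 differed by 0.32 (SE 0.15) and Marchf8 by −0.24 (SE 0.14), with overlapping groups.

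Of 13 genes of the class I pathway, which presents peptides from the cytosol, 0 passed limma's threshold. At an unadjusted p under 0.05, 1 was higher, where 9.37% of all genes were. That was Nlrc5, the class I counterpart of Ciita, at 1.18, 1.19, 1.16 and 1.47 in WT and 1.69, 1.51, 2.64 and 1.98 in ATF3 KO (log2 difference 0.71, SE 0.22, limma adjusted p = 0.142). Its groups were apart, and array 3 of the ATF3 KO group stood highest. H2-K1 differed by 0.18 (SE 0.16), the peptide transporter gene Tap2 by −0.14 (SE 0.13) and Erap1 by −0.29 (SE 0.20), all with overlapping groups. The median of the class I list was 0.05 above that of all genes and changed sign among the alternatives, from −0.07 to 0.11.

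**Figure D3:**
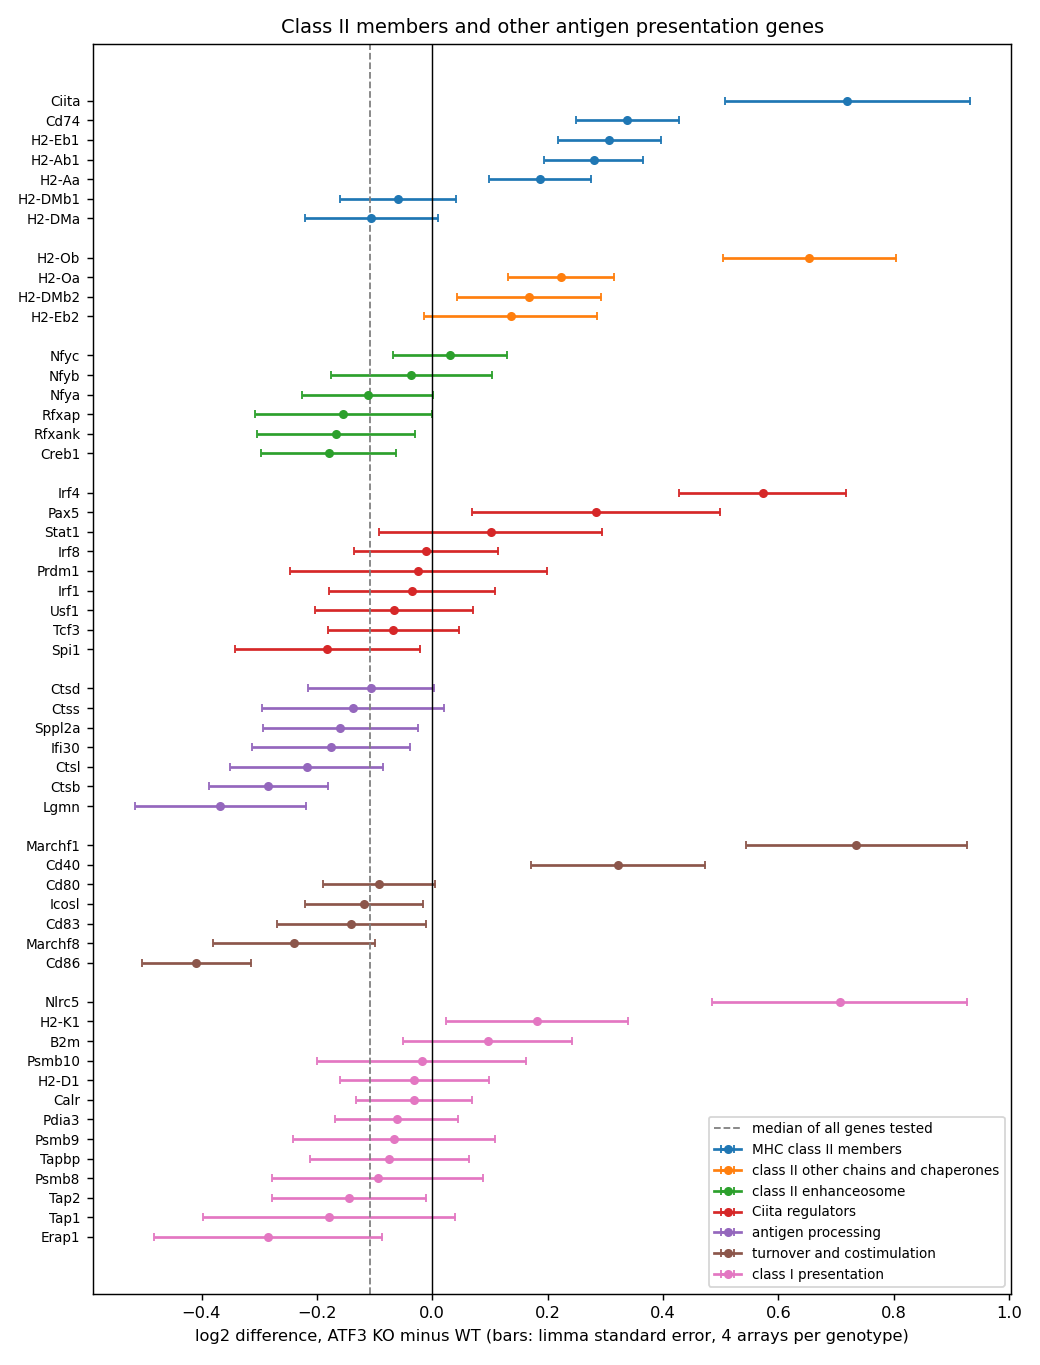
Log2 difference between ATF3 KO and WT (horizontal axis) for the class II members and 6 lists of antigen presentation genes, 1 line per gene, with limma standard errors from 4 arrays per genotype. Ciita (0.72), Marchf1 (0.73), Nlrc5 (0.71) and H2-Ob (0.65) lie farthest to the right, and the dashed line is the median of all genes, −0.11.

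Gamma interferon, the main inducer of Ciita outside professional presenting cells, has targets that followed single arrays. Of 10 listed genes 9 were measured, and 0 passed limma's threshold either after adjustment or at an unadjusted p under 0.05. Gbp2, a guanylate-binding protein, gave 3.45, 3.38, 3.22 and 3.50 in WT and 3.66, 3.32, 5.21 and 3.33 in ATF3 KO. Array 3 of the ATF3 KO group stood far above the rest, while the other 3 lay among or near the WT arrays. The summed signal of the list, in units of the array's 75th percentile, was between 106 and 117 in WT, 191 on that array and between 91.2 and 113 on the other ATF3 KO arrays. Such a sum adds linear signal, so the brightest probes set most of it, here that of Irf1 (mean log2 level 6.44 in WT). Within the ATF3 KO group, H2-Aa and H2-DMa were highest on array 3 and the other members on array 4. Without array 3 the log2 difference of Ciita was 0.80 and the members' median was 0.41 above all genes. The list's median above all genes fell from 0.34 to 0.04 without that array and was 0.63 without ATF3 KO replicate 2. The part of gamma interferon in the class II differences was not tested.

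For B cells, which carry class II, 13 of 13 markers were measured, and all 13 lay above the median of all genes, with a list median 0.46 above it (0.29 with normexp background correction). None passed limma's threshold, and 7 were higher at an unadjusted p under 0.05, where 9.37% of all genes were. Their summed signal was between 57.2 and 67.5 on the WT arrays and between 71.0 and 88.0 on the ATF3 KO arrays, highest on array 4. Cd79b, a chain of the B cell receptor, gave 4.54, 4.47, 4.67 and 4.43 in WT and 4.81, 4.72, 4.89 and 5.04 in ATF3 KO (log2 difference 0.34, SE 0.11, limma adjusted p = 0.143). Its groups were apart, as were those of Ebf1 (0.59, SE 0.19), a factor of early B cells, while Fcrla (0.40, SE 0.14) overlapped. Of the 13 markers, 3 had every ATF3 KO array above every WT array, where 4.13% of all genes did. The lowest difference was that of Blnk (−0.01, SE 0.11). All 13 were above background on all 8 arrays of both genotypes. The part of B lineage RNA in the class II differences was not tested.

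Of 7 plasma cell markers 6 were measured, with a list median 0.53 above all genes (0.26 with the deposited log2 values). As higher, 1 passed limma's threshold, where 0.367% of all genes did. At an unadjusted p under 0.05, 3 were higher, where 9.37% of all genes were. Derl3, a gene of protein export from the endoplasmic reticulum, rose by 1.12 (SE 0.19, limma adjusted p = 0.0495), although it was above background on only 2 WT arrays and its difference was 0.46 with normexp background correction. It still passed without WT replicate 2, but without WT replicate 1, 3 or 4 or any ATF3 KO replicate its limma adjusted p was between 0.0543 and 0.138. Jchain (1.81, SE 0.35) and Mzb1 (0.73, SE 0.15) did not pass, with limma adjusted p-values of 0.067 and 0.0822. Jchain passed without WT replicate 2 (2.18, limma adjusted p = 0.00942) and with normexp background correction, median scaling, the filter on all 8 arrays or the deposited log2 values, and Mzb1 with trend and robust variances or the deposited log2 values. The other 3 measured, Xbp1 (−0.12, SE 0.13), Prdm1 (−0.02, SE 0.22) and Sdc1 (0.11, SE 0.17), overlapped between groups. The summed signal, set mostly by Xbp1, overlapped, between 82.5 and 114 in WT and between 101 and 140 in ATF3 KO. Tnfrsf17 was not well above background on any array. Plasma cells are known to switch class II off.

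Markers of plasmacytoid dendritic cells, 6 of 6 measured, had a median 0.43 above all genes, with 0 past limma's threshold. At an unadjusted p under 0.05, 2 were higher, where 9.37% of all genes were. Their summed signal was between 326 and 447 in WT and between 453 and 693 in ATF3 KO, array 4 again the highest. This sum is set almost wholly by Siglech, whose probe is by far the brightest of the 6. Siglech, a surface lectin of these cells, differed by 0.40 (SE 0.16) and Ly6d, shared with B cells, by 0.40 (SE 0.14), both without overlap. Of all genes, 4.13% had every ATF3 KO array above every WT array. The other markers of this list overlapped between groups. For conventional dendritic cells 6 of 8 markers were measured, Xcr1 and Cd209a being not well above background on any array. Of the 6, the chemokine receptor gene Ccr7, also used by lymphocytes, passed limma's threshold as higher (0.94, SE 0.16, limma adjusted p = 0.0495). As lower, 0 passed that threshold. Of all genes, 0.367% passed it as higher and 0.08% as lower. Ccr7 still passed without ATF3 KO replicate 1 or 3, but without any WT replicate or ATF3 KO replicate 2 or 4 its limma adjusted p was between 0.0925 and 0.148. Itgax (−0.51, SE 0.13), Batf3 (−0.51, SE 0.15) and Zbtb46 (−0.45, SE 0.14) were lower at an unadjusted p under 0.05, as 14.5% of all genes were. The summed signal, set mostly by Itgax, overlapped, between 10.6 and 11.8 in WT and between 9.21 and 10.8 in ATF3 KO.

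Macrophage markers, 10 of 10 measured, all lay below the median of all genes, with a list median 0.26 below it (0.40 below with normexp background correction). Vsig4, which tissue macrophages use to bind complement fragments, fell by 0.92 (SE 0.15, limma adjusted p = 0.0481). It was the 1 marker of this list past limma's threshold, which 0.08% of all genes passed as lower. At an unadjusted p under 0.05, 6 of the 10 were lower, where 14.5% of all genes were. Among them were Cd5l (−0.51, SE 0.14), C1qb (−0.40, SE 0.13) and C1qa (−0.39, SE 0.14). Vsig4 still passed without ATF3 KO replicate 3, but without any WT replicate or ATF3 KO replicate 1, 2 or 4 its limma adjusted p was between 0.0588 and 0.139. Their summed signal was between 445 and 533 in WT and between 348 and 464 in ATF3 KO, with overlap. Monocyte markers (5 of 6 measured, 0 past limma's threshold or at an unadjusted p under 0.05) had a median 0.20 above all genes (0.33 without ATF3 KO replicate 2 and 0.11 with no filter on dim probes), and their summed signal was between 6.20 and 6.96 in WT and between 6.74 and 9.85 in ATF3 KO. T and NK markers (5 of 8 measured, 0 past limma's threshold) had a median 0.20 below all genes (0.10 below without ATF3 KO replicate 2). At an unadjusted p under 0.05, 2 were lower, where 14.5% of all genes were. Their summed signal, set mostly by Cd3d, was between 23.1 and 26.9 in WT and between 16.9 and 23.8 in ATF3 KO. The parts of these cell types in the class II differences were not tested.

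Of 12 neutrophil markers 11 were measured, Ly6g having no matched probe, and all 11 lay above the median of all genes, by 0.32 at the list's median. None passed limma's threshold, and 5 were higher at an unadjusted p under 0.05, where 9.37% of all genes were. The granule gene Camp differed by 0.35 (SE 0.13), S100a8 by 0.36 (SE 0.13), S100a9 by 0.38 (SE 0.14) and the receptor gene Csf3r by 0.31 (SE 0.11). The differences were lowest for the primary granule genes Mpo (−0.10, SE 0.22) and Elane (−0.05, SE 0.22), the chemokine receptor gene Cxcr2 (−0.09, SE 0.12) and Mmp8 (0.01, SE 0.10). The neutrophil list's median was 0.04 above all genes with quantile normalization and 0.01 with the deposited log2 values, against 0.45 and 0.42 for the class II members. The summed neutrophil signal was between 8444 and 10759 in WT and between 10431 and 12789 in ATF3 KO.

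**Figure D4:**
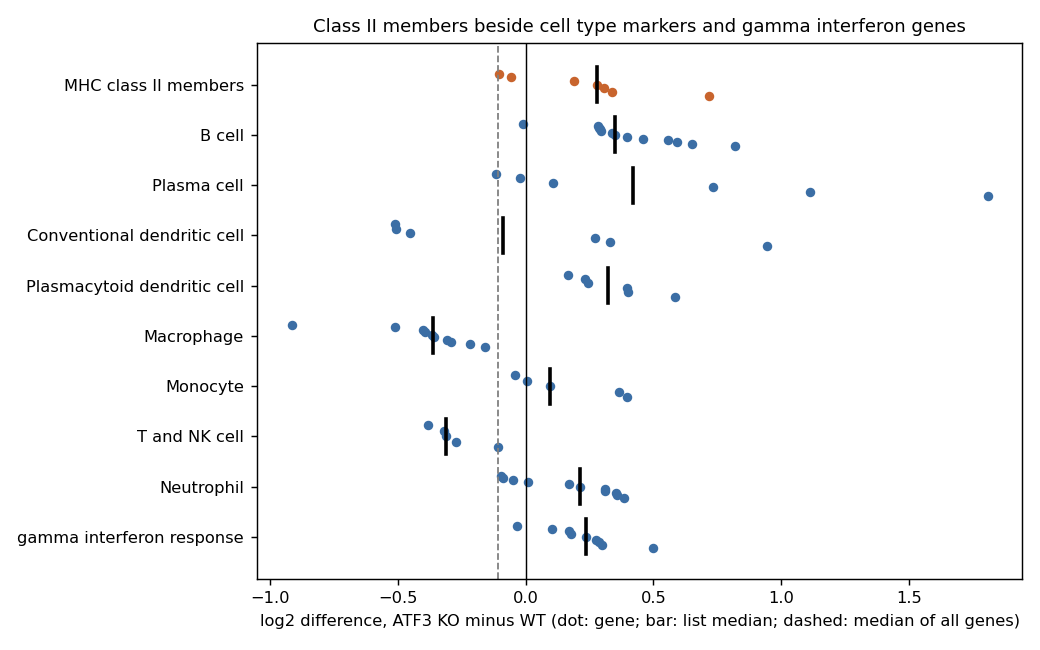
Log2 difference between ATF3 KO and WT (horizontal axis) of each measured gene (dots) in the class II group, 8 cell type marker lists and the gamma interferon list; black bars are list medians and the dashed line is the median of all genes. The list medians are 0.28 for class II, 0.42 for plasma cells, 0.35 for B cells, 0.32 for plasmacytoid dendritic cells, 0.24 for gamma interferon, 0.21 for neutrophils, 0.10 for monocytes, −0.09 for conventional dendritic cells, −0.31 for T and NK cells and −0.36 for macrophages.

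Within a genotype the members did not follow a common order of arrays. In ATF3 KO, array 4 was highest for Ciita, Cd74, H2-Ab1, H2-Eb1 and H2-DMb1, and array 3 for H2-Aa and H2-DMa. Array 2 was second for Ciita but last for Cd74, H2-Ab1, H2-DMa and H2-DMb1. In WT, array 3 was highest for Cd74, H2-Aa, H2-Eb1, H2-DMa and H2-DMb1, and array 2 was lowest for Ciita, H2-Eb1 and H2-DMa. Averaged over the members, WT array 3 stood 0.07 above its group's mean, WT array 2 stood 0.07 below it, and ATF3 KO array 4 stood 0.11 above. The members were not scaled to equal spread, so Ciita, the most variable, weighs most in this average and in the mean profile used below.

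Among 11708 other named genes above background on all arrays, those with a profile most like the members' mean over the 8 arrays included Kmo (Pearson r = 0.97), Cachd1 (0.97), Cd79b (0.96), Clic5 (0.96) and Tmem158 (0.96). Kmo encodes an enzyme of tryptophan breakdown, and Cd79b is among the 13 B cell markers above. These r values include the difference between genotypes, and these 5 genes were higher on every ATF3 KO array than on any WT array, from 0.31 for Clic5 to 0.62 for Kmo. With each genotype's mean removed from both sides, the closest were Trit1 (0.96), Clic5 (0.96), Hbb-bt (0.96), Itpr3 (0.95), Atp1b1 (0.95) and Cmya5 (0.94). Of the genes named here only Clic5 was close by both measures, and r after removal of the means was 0.87 for Cd79b and 0.91 for Kmo. The values rest on 8 arrays that share slide and scaling, and they are the highest of many, so they rank genes and test nothing.

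**Figure D5:**
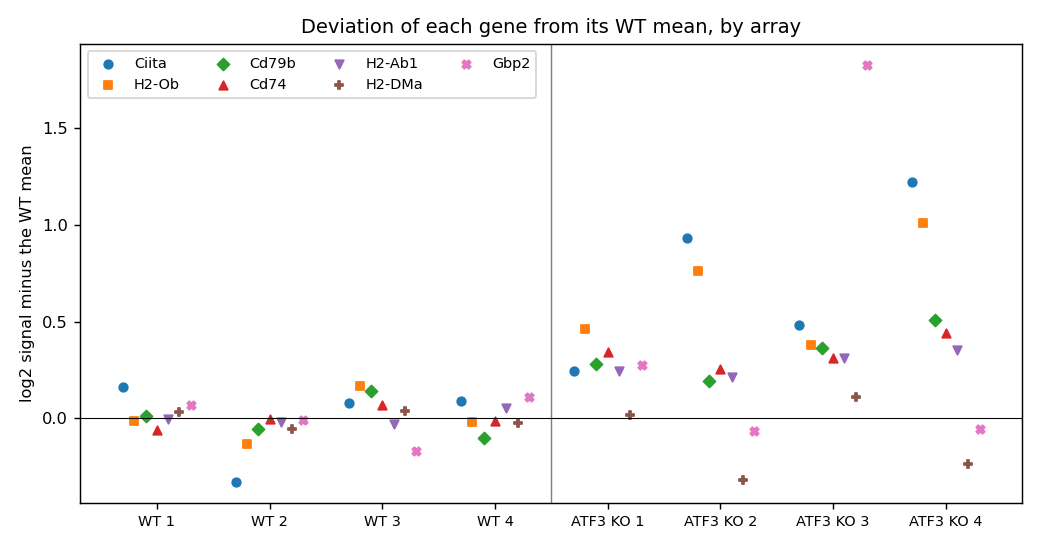
Log2 signal minus the gene's WT mean (vertical axis) on each of the 8 arrays for 4 class II members, H2-Ob, the B cell gene Cd79b and the gamma interferon target Gbp2. Ciita, H2-Ob and Cd79b are highest on ATF3 KO array 4, Gbp2 on ATF3 KO array 3, and H2-DMa stays around or below its WT mean.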

How the data were processed

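RNA from 4 WT and 4 ATF3 KO samples was hybridised to single-colour arrays, and the groups were taken from the sample titles. Each deposited scanner file gives linear spot intensity. The Feature Extraction version was 10.9.1.1 per the file headers, while the submitters' processing notes name 10.10. The processed signal is background-subtracted within each array, with no scaling between arrays recorded. The authors' deposited log2 table, whose scaling is not stated, correlated with each array's own log2 median signal (r from 0.998 to 1), had column medians from 6.15 to 6.16, and was used only as an alternative.

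Control spots and spots with an outlier flag (98 to 159 per array) were left out, and repeated spots were averaged. From each probe's log2 processed signal the array's 75th percentile over 55681 probes was subtracted. Probes above background on at least 4 of 8 arrays were kept (27948), and the one with the highest mean stood for a gene. Symbols came from RefSeq accessions of GRCm38.p6 (27235 probes named, 28446 not). Another build is named in the file headers, so coordinates are given only with RefSeq sequences. Levels are not compared between probes, since probes differ in sensitivity.

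Genotypes were compared by lmFit and eBayes of limma 3.58.1 (R 4.3.3), with no term but genotype, over 21251 genes, with Benjamini-Hochberg adjustment. The step was tested on simulated data, where it found 40% of genes changed 1.5-fold and 84% of those changed 2-fold. The members, the 15 gene lists and the tests were chosen with earlier results of these data known. From each list, genes past the threshold and up to 4 with the smallest p are named, and the promoter-binding and other class II genes in full; 1 gene that this rule names is not reported here. Irf1, Blnk, Prdm1, Sdc1, Mpo, Elane, Cxcr2 and Mmp8 were chosen for naming after their values were seen. Genes in more than one list count in each. No arrays were alike enough to be the same library (smallest root mean square log2 difference 0.282). Precision is limited by the array number. Alternatives tried were normexp background correction (on the median signal, since the files hold no mean signal; offset 50), other scalings, other filters on dim probes, other variance models, weights per array, a block on the replicate number, the authors' log2 table, other probes and leaving out each array.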

Additional observations from a re-analysis of the deposited data

Results flagged for a closer look

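In these 192 checks of 4 arrays, 14 had 1 array far from the other 3 by Dixon's ratio, where chance flags about 1 group in 20. Among the members this was Ciita in WT, where array 2 was at −1.61 and the others between −1.20 and −1.12. Without that array the log2 difference of Ciita was 0.61. On ATF3 KO array 4 the summed signal was 88.0 for B cell markers (others 71.0 to 73.3) and 9.85 for monocyte markers (6.74 to 7.17). It was 693 for plasmacytoid dendritic cell markers (453 to 491), a sum set almost wholly by Siglech. Also on that array, Nfyb was low at 1.68 and Itpr3 high at 1.92. Socs1 was high on ATF3 KO array 3, at 2.26, and Irf4 low on ATF3 KO array 2, at −0.35. In WT, array 4 was high for Nlrc5 (1.47) and Cd274 (0.64) and low for Ccr2 (−1.64), array 2 was low for Ly6d (2.995) and Cachd1 (−0.94), and array 3 was high for Kmo (−0.73).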

How the results depend on the processing

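The median log2 difference over the members, 0.28, became 0.18 under normexp, 0.40 with quantile normalization, 0.20 with median scaling, 0.43 with the percentile over probes detected on all arrays and 0.39 with the deposited log2 table, and ran from 0.26 to 0.30 when each array was left out. The median of all genes moved from −0.18 to 0.04 with the scaling. The number of members past limma's threshold was 0 in all fits except 1 (Cd74) with the deposited log2 table. Over all genes, 95 passed, against 236 with normexp, 31 with quantile normalization, 217 with median scaling, 44 with the percentile over detected probes, 10 with no filter on dim probes, 192 with trend and robust variances and 150 with the deposited table, and from 9 to 234 when an array was left out (9, 36, 13 and 59 without WT replicates 1 to 4, and 124, 20, 234 and 29 without ATF3 KO replicates 1 to 4). Of the pathway and class I genes 0 passed, against 1 with normexp and, when arrays were left out, 0 to 1. Of the cell type markers 3 passed, against 0 with quantile normalization, no filter or the replicate block, 1 with the percentile over detected probes or array weights, 5 with trend and robust variances or the deposited table, and 0 to 2 when arrays were left out. The values gave no sign that the replicate numbers pair the samples (correlations of deviations 0.191, −0.132, −0.269 and 0.182, with 2 of 8 arrays closest to their own number). So few arrays cannot exclude a pairing. With the replicate block 72 genes and 0 members passed. Of the 488 further values under the alternatives, 415 moved by less than the spread between arrays or, for counts, 1.5 times, and 73 by more. The 415 include values that could not move, such as differences under trend and robust variances or the replicate block. The number of arrays limits precision.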
